A study of Mus musculus with 223 samples.

Results

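The 10 genes described here mark classes of interneurons (INs) of the cortex: the neuropeptide genes Vip, Cck and Npy, the chemokine gene Cxcl14, the calcium-binding protein genes Calb1 and Calb2, and Id2, Lamp5, Ndnf and Reln. They were chosen by name from a fixed list and matched by symbol to the Ensembl identifiers of the count table, 10 genes of 43629. All 10 were matched, and each was read in single cells of 3 ages. Cells were sorted from the whole cortex of C57BL/6 mice of both sexes that carry eGFP under Htr3a regulatory sequences, so every group shares the reporter and cells were selected by fluorescence rather than by Htr3a transcript. There were 82 cells at embryonic day 18 (E18), which carry no type, and postnatal cells that the authors had placed in types 1, 2 and 3, with 22, 31 and 13 cells at postnatal day 2 (P2) and 34, 19 and 22 cells at P5. Several brains went into 1 pool per age, so each age is 1 sample, cells are not replicates, and no p-value was computed.

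Most Htr3a-expressing INs of the cortex come from the caudal ganglionic eminence (CGE) and settle largely in the superficial layers. In the adult cortex they divide into cells with vasoactive intestinal peptide (Vip), often with calretinin (Calb2) or cholecystokinin (Cck), and neurogliaform and other layer 1 cells with Reln, Npy, Ndnf, Lamp5 and Id2. INs from the medial ganglionic eminence (MGE), which express Lhx6 and often somatostatin (Sst), also use Npy, Calb1 and Reln, and Cajal-Retzius cells of layer 1 are a rich source of Reln. A marker of this list is therefore not by itself a mark of 1 class.

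Values are in RPM, read pairs of a gene scaled to the mapped read pairs of its cell, computed as the deposited count of a gene times the deposited coefficient of the cell. Mapped read pairs per cell ranged from 3707601 to 15840130, and the threshold for counting a cell as positive was 10 RPM, which is 37 read pairs in the shallowest cell and 95 at the median depth. Shares of cells have exact 95% binomial intervals and pooled RPM (summed counts over summed mapped read pairs) exact 95% Poisson intervals, which cover counting error only because read pairs are PCR copies without molecular identifiers. A pooled level does not separate fewer expressing cells from less RNA per cell, so both values are given. Beside a share of 0 stands its upper limit, 3 cells divided by the total. The median number of genes above 10 RPM was 2495.5 per cell at E18, 1437 in P2 type 3 and 2101.5 in P5 type 3. No pair of cells held identical counts. All P2 cells carry library label 353, whereas E18 and P5 cells are spread over labels 383, 392 and 393, whose meaning is not stated. P5 cells of types 1, 2 and 3 number 11, 2 and 2 in label 383 and 11, 3 and 3 in label 392. In label 393 they number 12, 14 and 17. Folds within labels 383 and 392 thus rest on few type 2 and 3 cells, and P5 cells of different labels are unlike mixes of types. Effects of age and of library label cannot be told apart at P2. Per the paper, P5 cortices were dissected in another medium and dissociated at a lower temperature for longer than E18 and P2 cortices. Differences of P5 from the other ages cannot be told apart from that step, also within a label.

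Markers of other cell types bear on these genes and were counted for that reason. Of 6 MGE markers, 5 had a pooled level above 10 RPM at E18, where 38 of 82 cells had at least 3 of them and 52 had Sst, against 8 and 7 of 66 cells at P2 and 0 and 0 of 75 at P5. The summed level of the 6 markers had a median of 552 RPM at E18 (range 0.301 to 3933), 2.53 RPM at P2 (0.0837 to 3459) and 5.21 RPM at P5 (0 to 830). At least 3 of 8 Cajal-Retzius markers were above 10 RPM in 1 cell at P2 and 1 cell at P5, both of type 2, and Ebf2 of that list was at 0 at both ages. At least 3 markers of excitatory neurons were found in 10 E18 cells, of astrocytes or radial glia in 3 P5 type 2 cells, and of the oligodendrocyte lineage in 1 P5 type 2 cell. The 4 erythrocyte markers were at 0 in every cell.

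Positions are given in GRCm38. The peptide genes are Vip (ENSMUSG00000019772, chr10:5639218-5647617, plus strand), Cck (ENSMUSG00000032532, chr9:121489824-121495694, minus strand) and Npy (ENSMUSG00000029819, chr6:49822710-49829507, plus strand), and Cxcl14 (ENSMUSG00000021508) is at chr13:56288643-56296551 on the minus strand. The calcium-binding protein genes are Calb1 (ENSMUSG00000028222, chr4:15881264-15908064, plus strand) and Calb2 (ENSMUSG00000003657, chr8:110137502-110168210, minus strand). Id2 (ENSMUSG00000020644) is at chr12:25093799-25097140 on the minus strand, Lamp5 (ENSMUSG00000027270) at chr2:136052239-136069917 and Ndnf (ENSMUSG00000049001) at chr6:65671590-65712326, both on the plus strand, and Reln (ENSMUSG00000042453) at chr5:21884454-22344702 on the minus strand. Only Reln overlaps other annotated genes, 7 in all. Of these only Gm10475, on the opposite strand, shares exon sequence with it (246 bases), and since the strand setting of the counting is not given in the sources used here, reads in that stretch cannot be assigned.

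The promoters of the 3 peptide genes are shown because these are the genes of the list that encode neuropeptides. Each line holds the 250 bases before the RefSeq start in the build GRCm38.p6, 5′ to 3′ on the strand of the gene, and capitals mark TATAAA or TGACG on either strand. They lie at chr10:5638968-5639217 (plus strand) for Vip, chr9:121495695-121495944 (minus strand) for Cck and chr6:49822460-49822709 (plus strand) for Npy.
Vip: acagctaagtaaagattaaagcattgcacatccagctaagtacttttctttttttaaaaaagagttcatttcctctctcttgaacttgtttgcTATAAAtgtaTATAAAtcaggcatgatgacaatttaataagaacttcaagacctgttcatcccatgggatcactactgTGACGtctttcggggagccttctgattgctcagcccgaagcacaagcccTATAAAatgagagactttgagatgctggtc
Cck: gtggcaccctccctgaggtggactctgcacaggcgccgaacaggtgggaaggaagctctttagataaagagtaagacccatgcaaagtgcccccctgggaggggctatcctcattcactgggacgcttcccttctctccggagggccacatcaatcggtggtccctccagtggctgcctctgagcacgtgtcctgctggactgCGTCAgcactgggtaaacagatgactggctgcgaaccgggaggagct
Npy: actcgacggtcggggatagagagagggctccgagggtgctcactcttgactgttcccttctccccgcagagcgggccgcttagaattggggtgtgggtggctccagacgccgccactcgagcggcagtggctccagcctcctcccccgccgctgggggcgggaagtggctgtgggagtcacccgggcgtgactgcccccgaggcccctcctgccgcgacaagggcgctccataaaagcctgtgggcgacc
The Vip stretch held TATAAA 3 times, the nearest beginning 30 bases before the start, and TGACG once, 79 bases before it. The Cck stretch held TGACG on the opposite strand, 47 bases before the start, and no TATAAA, and the Npy stretch held neither. Among 32851 promoters of the same length, 12.4% held TATAAA and 17.8% TGACG. G and C made up 38.4% of the Vip stretch, 60% of the Cck stretch and 69.2% of the Npy stretch, with a median of 52.4% over all promoters. These matches are a description of letters and not of binding. Promoters of 7 of the 10 genes were matched.

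Id2 and Reln were the genes of the list found in the most cells, with 36, 34 and 47 Id2 cells and 38, 20 and 44 Reln cells above 10 RPM at E18, P2 and P5. Over all ages Npy was above 10 RPM in 40 cells, Cck in 27, Cxcl14 in 25, Calb1 in 16, Ndnf in 13, Calb2 in 12, Vip in 11 and Lamp5 in 6. At E18, Vip and Ndnf were above 10 RPM in 0 cells each, and at P2 Lamp5 was not counted at all. At P5 each of the 10 genes was above 10 RPM in at least 1 cell. The plot of shares shows these levels by group with their intervals.

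**Figure D1:**
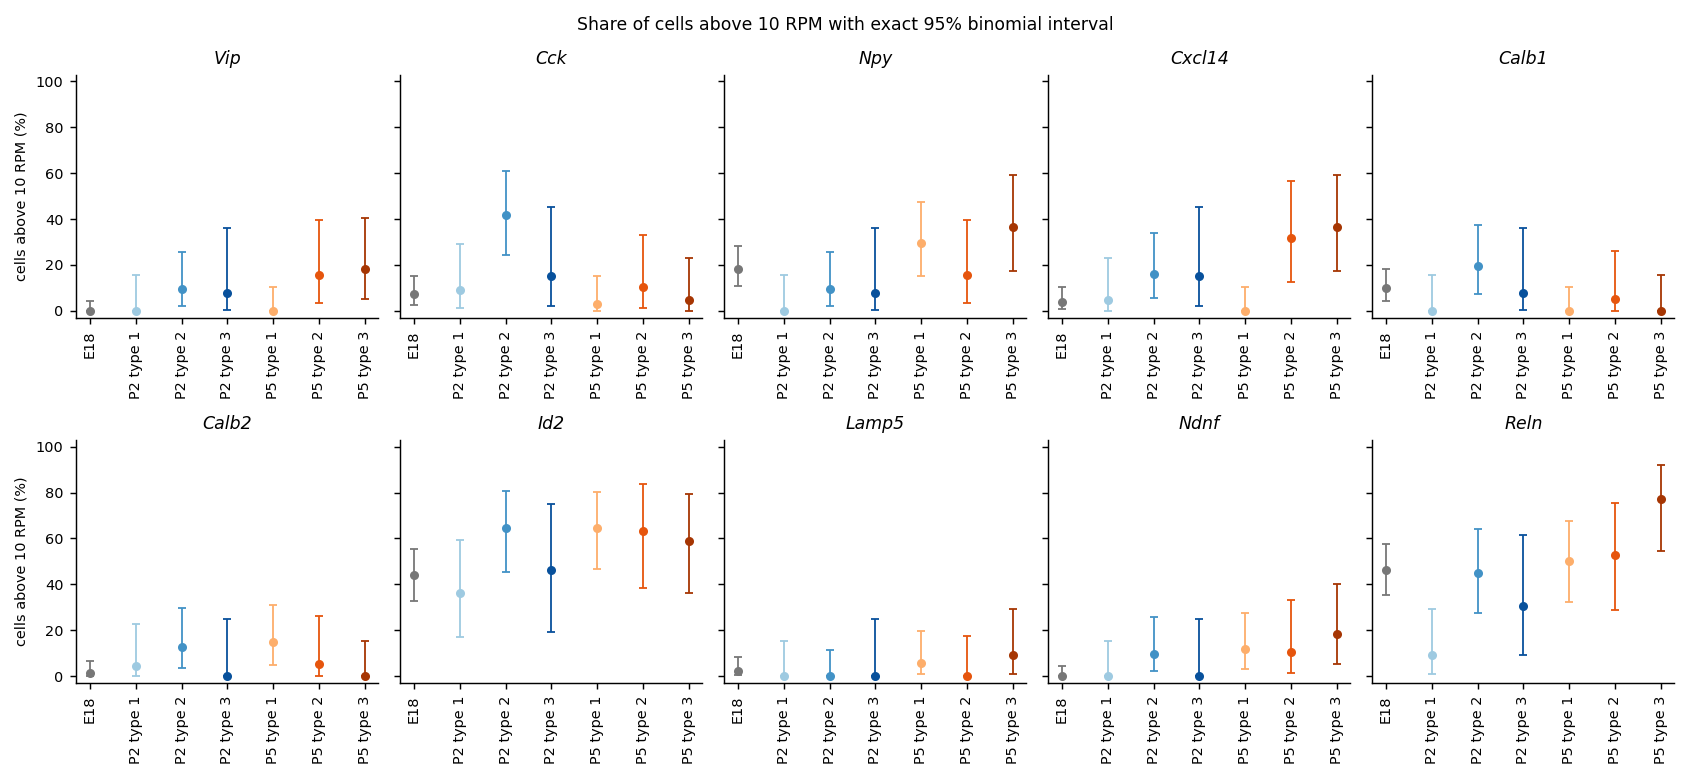
Share of cells above 10 RPM (y axis, percent) for each gene in the 7 groups (x axis), with exact 95% binomial intervals as bars. Id2 and Reln stand above the other 8 genes in most groups, and the largest share of any gene is that of Reln in P5 type 3, 77.3%.

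Vip encodes a peptide made by INs that mainly contact other INs. At E18, 1 read pair was counted in 82 cells, so 0 cells were above 10 RPM, which allows a share of up to 3.66%. At P2, 4 of 66 cells were above 10 RPM (6.06%, interval 1.68 to 14.8%), 3 of type 2 at 273, 29.3 and 23.1 RPM and 1 of type 3 at 23.9 RPM. At P5, 7 of 75 cells were above it (9.33%, 3.84 to 18.3%), and these were 3 of 19 type 2 cells at 374.7, 168.3 and 10.4 RPM and 4 of 22 type 3 cells at 1878, 60.1, 26.9 and 20.3 RPM. Type 1 had 0 such cells of 22 at P2 and 0 of 34 at P5, which allows 13.6% and 8.82%, and its highest cell at P5 had 5.88 RPM. The Vip cells were thus few at both postnatal ages and all outside type 1.

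The pooled Vip level was 0.00127 RPM at E18 (interval 3.2e-05 to 0.00706), 5.38 at P2 (5.20 to 5.57) and 29.6 at P5 (29.2 to 30.02). At P2, 1 type 2 cell held 81.05% of the Vip read pairs, and the level was 1.04 RPM without it. The P5 level rested on 1 type 3 cell, which held 74.2% of the Vip read pairs of that age, and without it the level was 7.73 RPM. In type 3 at P5 the pooled level was 93.7 RPM with that cell and 4.85 without it. It was 24.3 in type 2, with 10.2 without the highest cell, and 0.286 in type 1. The ratio of P5 to E18 has only 1 read pair beneath it, 23365 with a counting interval of 4193 to 922904. By library label, 0 of 15 P5 cells of label 383, 1 of 17 of label 392 and 6 of 43 of label 393 were above 10 RPM. Most P5 Vip cells thus carry label 393, which also holds 14 of the 19 type 2 and 17 of the 22 type 3 cells at P5.

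All 11 Vip cells also had Gad1 and Htr3a above 10 RPM, and 6 of 11 had Gad2, 54.5% against 79.2% of the other 130 postnatal cells. Nr2f2, a transcription factor gene of CGE INs, was found in 10 of the 11, against 56.2% of those other cells, which include all of type 1. Within P5 the counts for Nr2f2 were 2 of 3 Vip cells and 12 of 16 other cells in type 2, and 4 of 4 and 15 of 18 in type 3. The Htr3a level of the Vip cells ranged from 226 to 4681 RPM. The P5 type 2 Vip cell at 168.3 RPM had 3 of 6 astrocyte or radial glia markers above 10 RPM, and the part of these markers in its Vip level was not tested. Meis2 was found in 2 of the 11, both in P5 type 2, where 5 of the other 16 cells had it. Calb2 was above 10 RPM in 2 of the 11, both P2 type 2 cells, at 452 and 104.1 RPM, and Cck in 2, both at P5, at 68.3 and 13.04 RPM. Id2 was found in 7 of the Vip cells and Reln in 5, close to the 56.9% and 45.4% of other postnatal cells that had these genes. Sst was found in 0 of 11, Calb1 and Lamp5 in 0, and Npy and Ndnf in the same 1 cell.

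Cck encodes cholecystokinin, a peptide of a class of basket cells and of some Vip INs. Cck passed 10 RPM in 6 of 82 E18 cells (7.32%, 2.73 to 15.2%), at P2 in 17 of 66 (25.8%, 15.8 to 38.01%) and at P5 in 4 of 75 (5.33%, 1.47 to 13.1%). At P2, 13 of these 17 cells were of type 2, 41.9% of that type (24.5 to 60.9%), with a median among them of 94.2 RPM and a highest cell of 494 RPM. Type 1 held 2 Cck cells at P2, at 126.8 and 72.8 RPM, and type 3 held 2, at 848 and 131.6 RPM. Cck was thus most frequent at P2 and in type 2.

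The pooled Cck level was 5.82 RPM at E18 (5.65 to 5.99), 46.5 at P2 (45.9 to 47.01) and 3.82 at P5 (3.67 to 3.97). The log2 fold of pooled RPM + 1 was 2.80 for P2 against E18 and -3.30 for P5 against P2, and 3.09 and -4.21 without the highest cell of each side. At P5 the gene rested on few cells, since 1 type 2 cell at 261 RPM held 70.4% of the read pairs and the level was 1.14 RPM without it. All P2 cells carry 1 library label, so the P2 level cannot be told apart from that label.

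Npy encodes neuropeptide Y, found in neurogliaform INs and in part of the MGE INs. Npy cells, those above 10 RPM, numbered 15 of 82 at E18 (18.3%, 10.6 to 28.4%), 4 of 66 at P2 (6.06%, 1.68 to 14.8%) and 21 of 75 at P5 (28%, 18.2 to 39.6%). The highest E18 cells had 1438, 647 and 321 RPM, whereas the highest P5 cells had 225.9, 222.1 and 212.9 RPM. Pooled levels were 46.2, 5.99 and 33.1 RPM at the 3 ages. At P2 a type 2 cell at 329 RPM held 83.5% of the read pairs, and type 1 had a count of 0 in its 22 cells. At P5 10 of 34 type 1 cells, 3 of 19 type 2 cells and 8 of 22 type 3 cells had the gene. Pooled levels of 38.1, 26.1 and 30.4 RPM differed by less than 2-fold between types. Without the highest cell of each type they were 33.7, 13.7 and 22.1 RPM, and types 1 and 2 then differed by more than 2-fold.

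The Npy cells of the 2 main ages differed in what else they carried. At E18, 13 of the 15 Npy cells also had Sst above 10 RPM and 10 had at least 3 MGE markers, and Sst was found in 39 of the other 67 E18 cells. Pooled Npy at E18 was 66.6 RPM in the 52 cells with Sst and 11.2 RPM in the 30 without. At P5, Sst was above 10 RPM in 0 of 75 cells. These counts were made after the values had been seen, and the part of the MGE markers in the difference between ages was not tested. Without the cells with at least 3 MGE markers, the log2 fold of Npy was -3.54 for P2 against E18 (-2.75 with them) and 4.54 for P5 against P2 (2.29 with them).

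Cxcl14 encodes a secreted chemokine that marks superficial CGE INs. The Cxcl14 cells were 3 of 82 at E18 (3.66%, 0.761 to 10.3%), 8 of 66 at P2 (12.1%, 5.38 to 22.5%) and 14 of 75 at P5 (18.7%, 10.6 to 29.3%). At P5 these were 6 of 19 type 2 cells (31.6%) and 8 of 22 type 3 cells (36.4%), with highest cells at 96.6 and 55.8 RPM, and 0 of 34 type 1 cells, which allows 8.82%. The highest type 1 cell had 7.73 RPM, and the pooled level was 0.725 RPM in type 1 (0.638 to 0.821), 15.1 in type 2 (14.6 to 15.7) and 12.9 in type 3 (12.4 to 13.5). The log2 fold of type 1 against the other P5 types was -3.13, and -3.32, -2.30 and -3.64 within labels 383, 392 and 393. At P2 a type 3 cell at 731 RPM held 47.6% of the read pairs of the age, and type 3 had 33.8 RPM with it and 1.32 without it.

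For P5 against E18 the log2 fold of Cxcl14 was 1.89, with values of 1.07, -0.20 and 2.52 within labels 383, 392 and 393. The difference did not hold in label 392, which has 9 E18 cells. Type 1, with 0 Cxcl14 cells at P5, made up 11 of 15, 11 of 17 and 12 of 43 P5 cells of the 3 labels. Of the 22 postnatal Cxcl14 cells, 19 had Nr2f2 (86.4%, against 53.8% of the other postnatal cells), 16 had Reln (72.7% against 40.3%) and 17 had Id2 (77.3% against 53.8%). All but 1 of the type 1 cells are among the others. Within P5 the counts for Nr2f2 were 5 of 6 Cxcl14 cells and 9 of 13 other cells in type 2, and 7 of 8 and 12 of 14 in type 3. The groups were thus closer within the P5 types. At P2 the counts were 5 of 5 and 17 of 26 in type 2, and 2 of 2 and 8 of 11 in type 3.

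**Figure D2:**
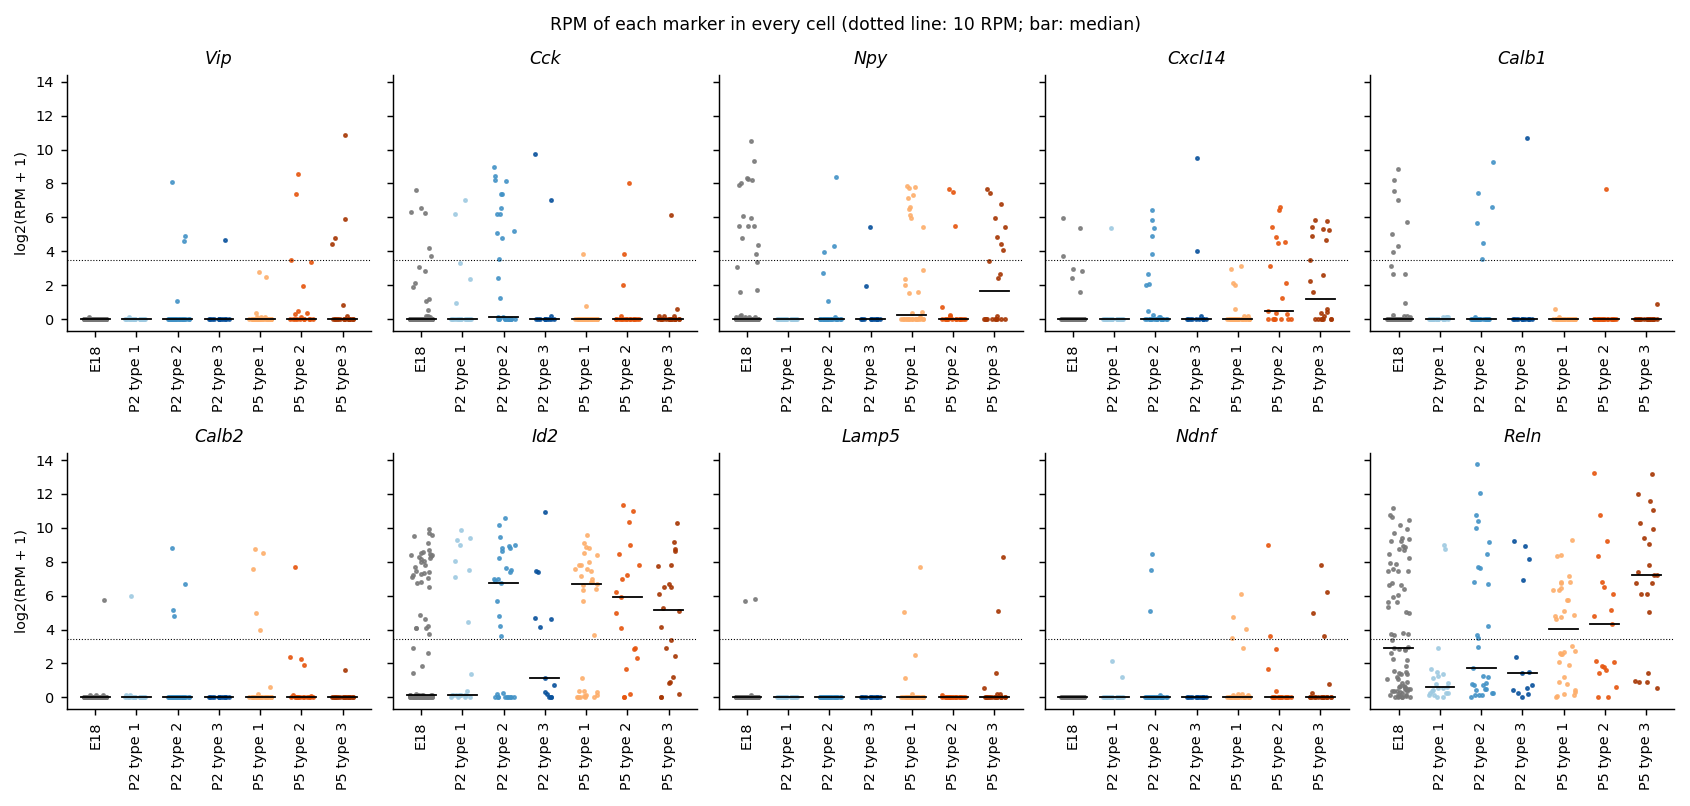
RPM of the 10 genes in every cell on a scale of log2(RPM + 1) (y axis) by group (x axis), with 1 point per cell, a bar at the median and a dotted line at 10 RPM. For 8 genes every group has its median below the line, and the highest Reln cells of P2 type 2 and P5 types 2 and 3 are at 13690.3, 9501 and 9274 RPM.

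Calb1 encodes calbindin, a calcium-binding protein of many Sst INs and of other neurons. Levels above 10 RPM were found in 8 of 82 cells at E18 (9.76%, 4.31 to 18.3%), at P2 in 7 of 66 (10.6%, 4.37 to 20.6%) and at P5 in 1 of 75 (1.33%, 0.0338 to 7.21%). The highest E18 cells had 456.6, 291.7 and 185.02 RPM. At P2 6 type 2 cells reached up to 606 RPM and 1 type 3 cell had 1622 RPM, and the P5 cell, of type 2, had 200 RPM. Without the highest cell the pooled level was 10.2 RPM at E18, 15.2 at P2 and 0.0186 at P5, so at P5 almost no read pairs lay outside that cell. Type 1 had 4 read pairs in 22 P2 cells and 5 in 34 P5 cells.

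Of the 8 Calb1 cells at E18, 7 had Sst and 5 had at least 3 MGE markers. Without the cells with at least 3 MGE markers the log2 fold for P2 against E18 turned from 1.03 to -1.32, and that for P5 against P2 was -0.93 instead of -3.43. For P5 against E18 the log2 fold was -2.40, with -4.56, -3.42 and 1.06 within labels 383, 392 and 393. The only P5 Calb1 cell carries label 393. The part of these markers in the difference was not tested.

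Calb2 encodes calretinin, found in Vip INs, in Cajal-Retzius cells and in olfactory bulb INs. Calb2 passed 10 RPM in 1 of 82 E18 cells (1.22%, 0.0309 to 6.61%), at P2 in 5 of 66 (7.58%, 2.51 to 16.8%) and at P5 in 6 of 75 (8%, 2.99 to 16.6%), and pooled levels were 0.667, 10.7 and 21.7 RPM. Without the highest cell of each age these levels were 0.00385, 3.55 and 13.4 RPM, and the single E18 cell held 99.4% of the read pairs of that age. At P2 4 of the 5 cells were of type 2, with a highest cell of 452 RPM that held 67.4% of the read pairs. At P5 5 of the 6 were of type 1, at 432.7, 371.6, 192.3, 30.02 and 14.5 RPM, the other was a type 2 cell at 207.1 RPM, and type 3 had 0 of 22. Calb2 thus had its largest count in type 2 at P2 and in type 1 at P5.

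The log2 fold of Calb2 in type 1 against the other P5 types was 2.64, with 5.74, 5.29 and -1.70 within labels 383, 392 and 393. These labels hold 1 Calb2 cell of 11, 3 of 11 and 1 of 12 type 1 cells, and labels 383 and 392 have few cells of the other types. In label 393 the type 2 cell at 207.1 RPM lay on the other side, and the fold was 4.12 over all labels without the highest cell of each side. Of 11 postnatal Calb2 cells, 4 had Ndnf (36.4%, against 6.92% of the other 130), 1 of which is the P2 type 2 cell with 4 of 8 Cajal-Retzius markers, and 6 had Meis2, 5 of them in P5 type 1, where 28 of the other 29 cells had it too. Vip was found in 2 of the 11 and Calb1 in 0. At least 3 of 6 markers of olfactory bulb type INs, Meis2 among them, were above 10 RPM in 32 of 34 type 1 cells, 8 of 19 type 2 cells and 4 of 22 type 3 cells at P5, and in 10, 3 and 0 cells of these types at P2. Their summed level ranged from 1294 to 9970 RPM in P5 type 1, from 24.9 to 6334 in type 2 and from 1.98 to 4174 in type 3, with Th at 0 in all 3. The part of these markers in the Calb2 level of type 1 was not tested.

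Id2 encodes an inhibitor of basic helix-loop-helix factors and is carried by neurogliaform and other CGE INs. At E18 36 of 82 cells were above 10 RPM (43.9%, 32.95 to 55.3%), at P2 34 of 66 (51.5%, 38.9 to 64.01%) and at P5 47 of 75 (62.7%, 50.7 to 73.6%), and these intervals overlap. At E18, 10 cells had at least 3 excitatory neuron markers above 10 RPM, and 9 of these were Id2 cells, and the part of these markers in the E18 level was not tested. Pooled levels were 129.4, 194.7 and 222.6 RPM. At P5 the share was 64.7% in type 1, 63.2% in type 2 and 59.1% in type 3, with pooled levels of 152.5, 437 and 134.6 RPM, so type 2 had a higher level at a similar share. Within P5 the share was 40% in label 383, 76.5% in label 392 and 65.1% in label 393.

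The 3 highest P5 type 2 cells for Id2 had 2581, 2082 and 1291 RPM. The cell at 2082 RPM had 5 of 6 astrocyte or radial glia markers above 10 RPM, and 2 further type 2 cells had 3 and 4 of them, with Id2 at 124.5 and 358 RPM. No cell of types 1 and 3 had 3 or more. Hes5 of that list was at 0 at P5, and the summed level of its 6 genes reached 16430.3 RPM. The pooled Id2 level of type 2 was 337 RPM without the 3 cells. The log2 fold of type 2 against the other P5 types was 1.57 over all cells, 1.34 without cells that carry markers of another cell type, 1.08 without the highest cell of each side, and -4.07, 2.46 and 1.58 within labels 383, 392 and 393, of which label 383 holds 2 type 2 cells. The part of the glial markers in the level was not tested.

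Lamp5, which encodes a vesicle membrane protein and marks neurogliaform cells in the adult cortex, was the rarest gene of the list. Lamp5 passed 10 RPM in 2 of 82 E18 cells (55.8 and 50.6 RPM), in 0 of 66 at P2 and in 4 of 75 at P5. No read pair was counted at P2, which allows a share of up to 4.55%, more than the 2.44% found at E18. With P2 set at a floor of 3 counts, its pooled level was 341-fold lower than at E18 (upper 95% bound of the ratio 0.00361). That of P5 was 1399-fold higher than at P2 (lower 95% bound 1137). These values cover counting of read pairs only, and the shares of cells set no bound on a decrease from E18 to P2. The P5 level was 6.89 RPM, and 4.41 RPM without its highest cell. The E18 level was 1.68 RPM with both E18 cells and 0.805 RPM without the higher one. In these 2 cells Gad1 was at 0 and 0.081 RPM, Gad2 at 1.43 and 1.13 RPM and Htr3a at 0.0796 and 4.94 RPM, and the second had 4 excitatory neuron markers above 10 RPM. The part of these markers in the E18 level was not tested. The P5 cells were 2 of type 1, at 207.2 and 32.2 RPM, and 2 of type 3, at 308 and 33.8 RPM, and all 4 also had Reln, Gad1, Gad2 and Sp8 above 10 RPM. Npy was found in 1 of the 4 and Vip in 0. All P2 cells carry 1 library label.

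Ndnf encodes a secreted factor that marks layer 1 INs. No read pair was counted in the 82 cells at E18, which allows a share of up to 3.66%. It was above 10 RPM in 3 of 66 cells at P2 (4.55%, 0.947 to 12.7%), all of type 2 and at 351, 183.5 and 33.4 RPM. At P5 10 of 75 cells had it (13.3%, 6.58 to 23.2%), 4 of type 1 up to 67.2 RPM, 2 of type 2 at 509 and 11.1 RPM, and 4 of type 3 up to 225 RPM. The pooled levels were 9.17 RPM at P2 and 12.9 at P5, and 3.70 and 7.12 RPM without the highest cell of each age. With E18 set at a floor of 3 counts the P5 level was 3395-fold higher, and the exact 95% lower bound of the ratio was 2760. Both values cover counting of read pairs only. Of the 2 type 2 cells at P5, the one at 509 RPM had 7 of 8 Cajal-Retzius markers above 10 RPM and the one at 11.1 RPM had 4 of 6 astrocyte or radial glia markers. Ndnf was thus not counted at E18, and its P5 cells apart from these 2 were of types 1 and 3.

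Reln encodes reelin, a secreted protein that guides neuronal positioning and stays on in layer 1 and other INs. Reln passed 10 RPM in 38 of 82 E18 cells (46.3%, 35.3 to 57.7%), at P2 in 20 of 66 (30.3%, 19.6 to 42.9%) and at P5 in 44 of 75 (58.7%, 46.7 to 69.9%). Median levels were 6.48, 1.03 and 32.02 RPM, and pooled levels 192.7, 424.9 and 433.1 RPM. At P2 the share was lower than at E18, with overlapping intervals. Among the 44 E18 cells with fewer than 3 MGE markers it was 29.5%. The pooled level at P2 was 211.5 RPM without 1 type 2 cell that carries Cajal-Retzius markers. At P5, 17 of 34 type 1 cells (50%), 10 of 19 type 2 cells (52.6%) and 17 of 22 type 3 cells (77.3%, 54.6 to 92.2%) had it, with pooled levels of 65.9, 598 and 989 RPM and medians of 15.3, 18.7 and 148.7 RPM.

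The pooled Reln levels rested on few cells. The highest were a P2 type 2 cell at 13690.3 RPM, a P5 type 2 cell at 9501 RPM and a P5 type 3 cell at 9274 RPM, and these held 55.3%, 69.9% and 40.99% of the read pairs of their groups. The first had 4 of 8 Cajal-Retzius markers above 10 RPM, among them Trp73 at 354 RPM and Lhx1 at 249 RPM, with Gad1 at 0, Gad2 at 0.622 RPM and Htr3a at 1.66 RPM, and it also carried Ndnf at 183.5 RPM and Calb2 at 34.6 RPM. The second had 7 of the 8, with Trp73 at 112.1 RPM and Lhx1 at 151.8 RPM, together with Ndnf at 509 RPM, Gad2 at 345 RPM and Htr3a at 47.04 RPM. The third had 0 of the 8, Trp73 and Lhx1 at 0 and Gad2 at 2009 RPM. Apart from the first and second of these cells, no P2 or P5 cell had 3 or more of these markers above 10 RPM. The summed level of the list was highest in the first cell at P2 (861 RPM) and in a type 1 cell at P5 (467 RPM), and its medians were 1.30 and 1.57 RPM.

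Without the P2 and P5 cells with Cajal-Retzius markers, which were chosen after their values had been seen, the pooled Reln level was 362 RPM in P2 type 2 (784 with it) and 188.4 RPM in P5 type 2 (598 with it). The order of the P5 types by pooled level stayed type 3, type 2 and type 1. The Ndnf level of P5 type 2 was 23.4 RPM with the cell and 1.02 without it, so the order of the types for Ndnf was type 2, type 3 and type 1 with it and type 3, type 1 and type 2 without it. In P2 type 2 the Ndnf level was 18.2 and 12.8 RPM.

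The log2 fold of Reln in type 3 against the other P5 types was 1.97 over all cells and 2.50 without the highest cell of each side. It was 4.71, 2.23 and 2.94 within labels 383, 392 and 393, which hold 2, 3 and 17 type 3 cells. The fold of type 1 was -3.56, with -3.04, -5.35 and -2.65 within the labels. For P5 against E18 the fold was 1.16, and 0.65 without cells that carry markers of another cell type. Within labels 383, 392 and 393 it was -0.33, 2.66 and 1.30, and their P5 cells differ in the mix of types. At E18 Reln was found in 25 of the 38 cells with at least 3 MGE markers and in 13 of the other 44, and without these cells the fold for P5 against E18 was 2.13. What part these markers have in the difference between ages was not tested.

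Compared per kilobase of exon, which allows genes to be set beside each other, the highest pooled levels at P5 were 91.3 RPM per kilobase for Id2, 58.5 for Npy, 18.2 for Reln and 12.4 for Calb2, and the lowest 0.428 for Calb1. At E18 Npy came first at 81.6 RPM per kilobase, then Id2 at 53.1 and Reln at 8.12. A single cell held 35.7% of the Npy read pairs at E18, and the pooled level was 30.1 RPM without it and 46.2 with it. At P2 the order was Id2 at 79.9, Cck at 35.6, Reln at 17.9 and Npy at 10.6. Both of the last values rested on single cells, since without the highest P2 cell the pooled level was 211.5 RPM in place of 424.9 for Reln and 1.01 RPM in place of 5.99 for Npy.

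Across the list, a gene was called higher or lower where the log2 fold of pooled RPM + 1 was 1 or more in size, among genes above 10 RPM in over 5% of the cells compared. Cells of both sides were counted together, so a gene found on 1 side only can pass, with its direction largely set by the filter. For P5 against E18, 7 of the 10 genes passed that filter, of which 3 were higher (Cxcl14, Ndnf and Reln) and 1 lower (Calb1), beside 11.9% higher and 19.6% lower among the 9808 genes that passed. Ndnf passed through its 10 P5 cells, with 0 of 82 at E18, and Calb1 through its 8 E18 cells, with 1 of 75 at P5. The directions of Ndnf and Calb1 were thus largely set by the filter. The call of Reln ended without the highest cell of each side (log2 fold 0.88). Vip, Calb2 and Lamp5, above 10 RPM in 7, 7 and 6 of these cells, did not pass. The median log2 fold was 0.78 over the 7 genes and -0.17 over all genes. For P2 against E18, 6 passed, with Cck, Cxcl14, Calb1 and Reln higher and Npy lower, beside 11.5% and 21.8% of all genes, and medians of 1.08 and -0.21. Of these calls, Reln (0.25) and Calb1 (0.53) ended without the highest cell of each side, and Reln was at -0.053 without cells that carry markers of another cell type. For P5 against P2, 9 passed, with Vip and Npy higher and Cck and Calb1 lower, beside 17.9% and 15.1%, and medians of 0.19 and 0.04. P5 and P2 are compared with the same E18 cells in the first 2 comparisons.

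The types were drawn by the authors from these same counts, so differences between types are a description. Genes with 0 cells above 10 RPM in a type passed the filter through the other types, which largely set their direction. These were Vip, Npy and Calb1 in P2 type 1 and Calb2 in type 3 at both ages. At P5 they were also Vip and Cxcl14 in type 1 and Lamp5 in type 2. In P2 type 1, 0 of 8 genes that passed were higher and 7 lower (all but Id2) than in the other P2 types, beside 19.4% and 31.9% of all genes, with medians of -2.93 and -0.25. In P2 type 2, 5 were higher (Vip, Cck, Npy, Calb2 and Reln) and 0 lower, beside 28.1% and 19.9%, with medians of 2.05 and 0.19. Without cells with at least 3 MGE markers the Npy fold of type 2 turned from 2.91 to -0.42 and that of type 3 from -1.19 to 1.65. In P2 type 3, Cxcl14 and Calb1 were higher and Vip, Npy, Calb2 and Reln lower, beside 16.0% and 53.4%. Both higher genes rested on 1 cell each and were lower without the highest cell of each side (log2 folds of -1.09 and -2.87), and the lower calls of Vip (-0.93) and Npy (-0.42) also ended. With TMM library sizes 3 of the listed genes were higher and 2 lower, and with DESeq2 size factors 3 and 1. Over all genes the median log2 fold of P2 type 3 was -1.26, and relative to it Vip lay at -0.02, Npy at 0.08, Reln at -0.58, Id2 at 1.27 and Cck at 1.89.

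In P5 type 1, 1 of 9 genes that passed was higher (Calb2) and 5 lower (Vip, Cck, Cxcl14, Ndnf and Reln), beside 23.6% and 23.7% of all genes, with medians of -2.10 and 0.04. Within label 383 Ndnf was higher in type 1 (2.46). In P5 type 2, Cck, Cxcl14, Id2 and Ndnf were higher and Calb2 and Lamp5 lower, beside 23.5% and 21.8%, with medians of 0.67 and 0.03. Ndnf was at -2.77 without the cells that carry markers of another cell type. Without the highest cell of each side Ndnf turned to -1.41 and the call of Cck ended (2.39 to 0.43). Within label 392, with 3 type 2 cells, Cck (-1.14) and Cxcl14 (-2.84) were lower, within label 393 Calb2 was higher (3.14), and the difference in mean log2 of Calb2 over cells was 0.11. In P5 type 3, Vip, Cxcl14, Lamp5 and Reln were higher and Calb2 lower, beside 14.7% and 45.7%, with a median of 0.77 over the 9 genes and -0.78 over all genes. Without the highest cell of each side the calls of Vip (3.30 to 0.34) and Lamp5 (1.06 to 0.77) ended. Within label 383, with 2 type 3 cells, Vip (-1.27), Cxcl14 (-1.46) and Lamp5 (-1.66) were lower. Relative to the median of all genes Reln lay at 2.76, Cxcl14 at 1.83 and Calb2 at -3.98. Total counts on genes in place of mapped read pairs as library size moved the share of all calls that are higher from 37.8% to 49.9% for P5 against E18, from 34.6% to 46.1% for P2 against E18, from 51.8% to 38.6% for P5 type 2 and from 24.3% to 44.9% for P5 type 3, and DESeq2 size factors moved it from 23.002% to 39.5% for P2 type 3.

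Pairs of the 10 genes above 10 RPM in the same cell were then counted. At least 1 cell held both genes for 12 pairs at E18, 23 at P2 and 33 at P5, out of 28, 36 and 45 pairs with both genes found at that age, so part of the difference between ages is set by which genes were found at all. Cells with none of the 10 genes were 13 of 82 at E18 (15.9%, 8.72 to 25.6%), 13 of 66 at P2 (19.7%, 10.9 to 31.3%) and 7 of 75 at P5 (9.33%, 3.84 to 18.3%), and 11 of the 13 at P2 were of type 1. Cells with 3 or more were 8 at E18 (9.76%, 4.31 to 18.3%), 12 at P2 (18.2%, 9.76 to 29.6%) and 27 at P5 (36%, 25.2 to 47.9%). At P5 these were 6 of 34 type 1 cells, 8 of 19 type 2 cells and 13 of 22 type 3 cells, and at P2 0 of 22, 11 of 31 and 1 of 13. The most in any cell was 6, in a P2 type 2 cell with Cck, Cxcl14, Calb2, Id2, Ndnf and Reln, in which 2575 genes were above 10 RPM. Doublets were not called.

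**Figure D3:**
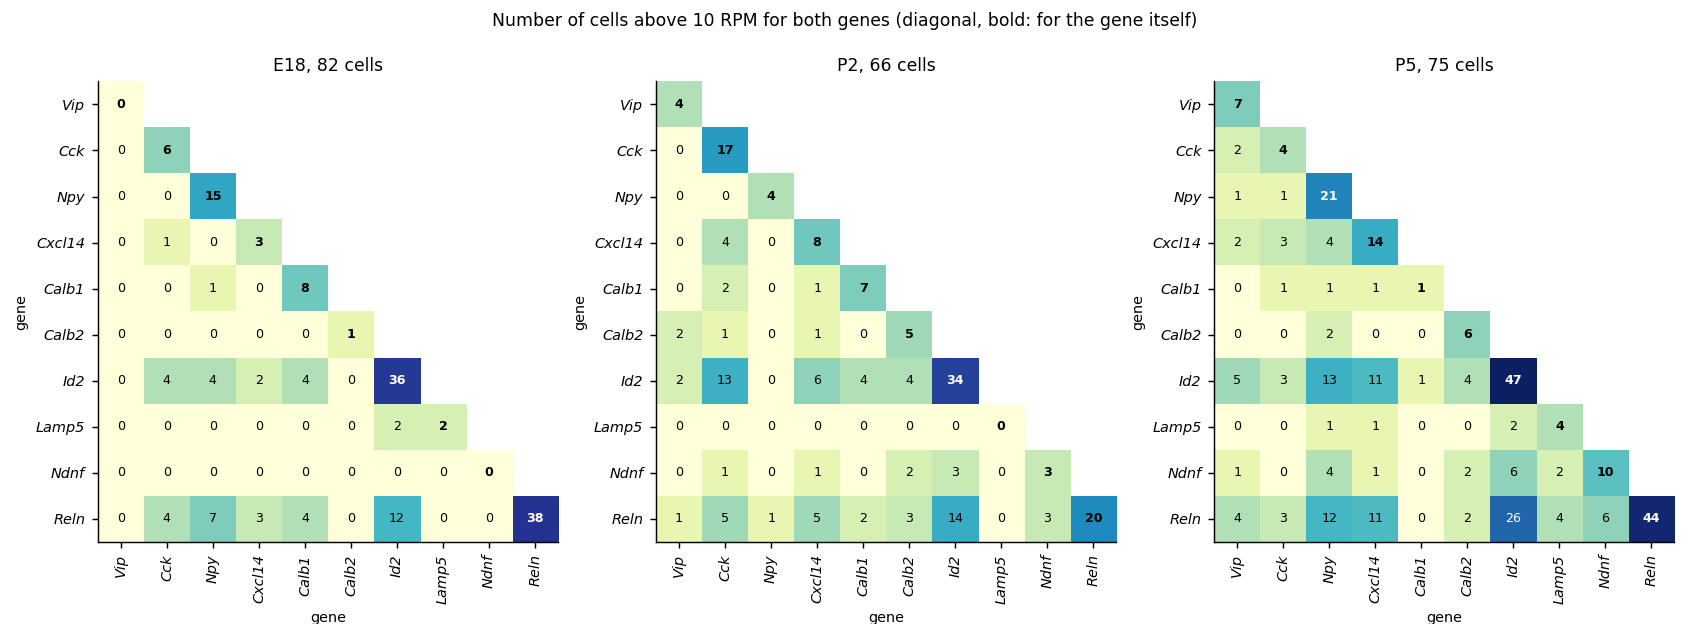
Number of cells above 10 RPM for both genes of a pair (both axes list the genes), with the count for the gene itself on the diagonal in bold, at E18, P2 and P5. Id2 with Reln is the most frequent pair at each age, with 12, 14 and 26 cells.

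Among the peptide genes, Cck and Npy shared 1 cell of 27 Cck cells and 40 Npy cells, Vip and Npy shared 1 of 11 and 40, and Vip and Cck shared 2 of 11 and 27. All 4 of these shared cells were at P5. Each of these genes was found in few cells, and nothing is read from counts this small. Calb1 shared no cell with Vip, Calb2, Lamp5 or Ndnf, and Lamp5 shared none with Vip, Cck, Calb1 or Calb2, but these genes were each above 10 RPM in at most 27 cells.

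Id2 and Reln, the most frequent genes, shared the most cells with the others. Id2 and Reln shared 52 cells, 44.4% of the Id2 cells and 50.98% of the Reln cells. At E18 they shared 12, 33.3% of 36 and 31.6% of 38, and at P5 26, 55.3% of 47 and 59.1% of 44. Among all cells of the age, Id2 was found in 43.9%, 51.5% and 62.7% at E18, P2 and P5, and Reln in 46.3%, 30.3% and 58.7%. No closer pairing of Id2 with Reln is read from the shared cells. At P2 Cck and Id2 shared 13 cells, 76.5% of 17 Cck cells and 38.2% of 34 Id2 cells. At P5 Cxcl14 shared 11 of its 14 cells with Reln and 11 with Id2 (78.6% each), whereas Npy shared 12 of its 21 cells with Reln and 13 with Id2. Ndnf shared all 3 of its P2 cells and 6 of its 10 P5 cells with Reln, and 1 cell at each age is among those with Cajal-Retzius markers. Cck and Cxcl14 shared 8 cells over all ages (29.6% of 27 and 32% of 25), 4 of them at P2 and 3 at P5.

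**Figure D4:**
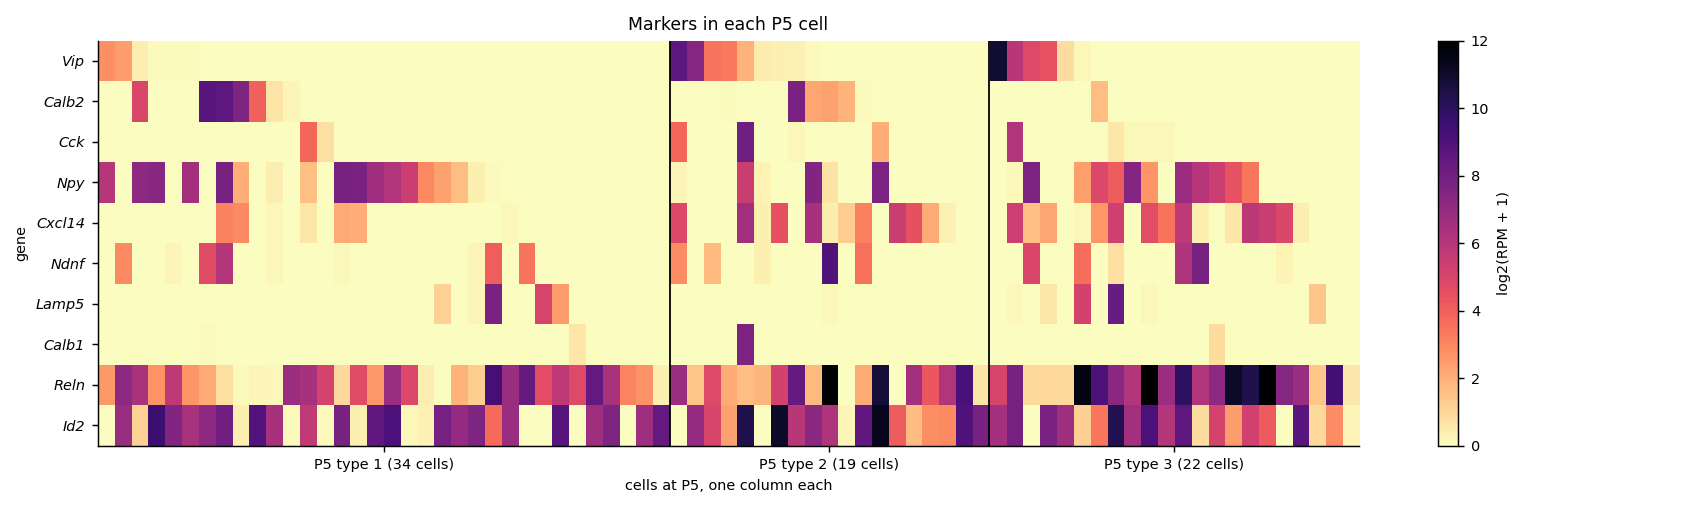
Level of each gene (rows) in each of the 75 P5 cells (columns, grouped by type) as log2(RPM + 1) in colour. Vip and Cxcl14 above 10 RPM lie in types 2 and 3 only, Calb2 lies mostly in type 1, and Reln and Id2 run across all 3 types.

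Genes of the same pathways were read from lists of receptors, of peptide processing and of other IN markers. Of 11 receptor genes, 5 passed the filter for P5 against E18, of which 1 was higher (Adcyap1r1, a receptor gene of the PACAP and VIP family, 93.4 RPM against 17.3) and 0 lower, beside 11.9% and 19.6% of all genes, with a median log2 fold of 0.67. The reelin receptor genes Vldlr and Lrp8 and the adaptor gene Dab1 were above 10 RPM in 26, 43 and 33 of 75 P5 cells and in 16, 37 and 9 of 82 E18 cells. Npy1r was found in 7 of 75 cells at P5, and the Cck receptor genes Cckar and Cckbr and the Vip receptor gene Vipr1 in 0 cells at each age.

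All 12 genes of peptide processing and dense-core vesicles passed for P5 against E18, with 0 higher and 4 lower (Pcsk1, Pcsk2, Scg5 and Chga), beside 11.9% and 19.6% of all genes, and a median of -0.43. Pcsk1 and Pcsk2 encode the proteases that cut peptide precursors, and their pooled levels were 27.9 and 33.6 RPM at E18 and 6.52 and 9.27 at P5. Cpe, which encodes the enzyme that trims the cut peptides, was above 10 RPM in 49 of 75 P5 cells. For P2 against E18, 1 of 12 was higher and 4 lower, beside 11.5% and 21.8% of all genes, and for P5 against P2 1 and 4, beside 17.9% and 15.1%.

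Of 23 other peptide and subtype marker genes, 8 passed for P5 against E18, with Cnr1, Parm1, Sema3c and Hapln1 higher and Sst, Tac1 and Nxph1 lower, beside 11.9% and 19.6% of all genes. The cannabinoid receptor gene Cnr1 was above 10 RPM in 63 of 75 P5 cells, and Hapln1, which encodes a link protein of the extracellular matrix, in 23 of 75 against 0 of 82 at E18. Sst had a pooled level of 333 RPM at E18 and 0.0696 at P5. Tac2 and Crh were found in 6 and 7 P5 cells, and Pvalb and Sncg were at 0 in all cells. Of 8 genes of this list that passed at P5, 0 were higher and 6 lower in type 1, beside 23.6% and 23.7% of all genes, and 5 were higher and 0 lower in type 2, beside 23.5% and 21.8%. In type 3, 3 were higher (Tac2, Crh and Sema3c) and 1 lower (Parm1), beside 14.7% and 45.7%.

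The genes most like each member were taken as those with the largest lower value of Pearson's r of log2(RPM + 1) over the 66 P2 and the 75 P5 cells, among 7739 genes. All values were low. Reln was closest to Zranb2 (0.43) and Snhg11 (0.38), Cck to Pnoc (0.38), which encodes a peptide precursor, and Cbln2 (0.38), Vip to Stradb and Ppp1r1a (0.37 each), Cxcl14 to Slc25a46 (0.37) and Cntnap2 (0.35), Calb2 to Pigyl (0.32) and Cnot8 (0.31), Id2 to Srrm3 (0.30) and Nudt19 (0.29), and Npy to Zswim6 and Nxph1 (0.24 each). Vip and Stradb were above 10 RPM together in 2 P2 cells and 3 P5 cells, as were Calb2 and Pigyl, and by Spearman's rho Stradb ranked 620 and Pigyl 708, so these 2 rest on few cells. Cells of an age were treated as 1 sample and their depth varies, so these are descriptions. Calb1, Lamp5 and Ndnf did not pass the filter for this measure.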

How the data were processed

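Single Htr3a-GFP+ cells were captured on a microfluidic chip and sequenced as read pairs. Per the labels and methods, the authors aligned them to GRCm38 with TopHat2, counted them per Ensembl gene with HTSeq 0.6.1 and deposited counts of read pairs for 43629 genes, without normalization, with a coefficient per cell that gives RPM. No column of cells was left unused. Symbols came from GENCODE M21 names, which matched 42462 identifiers, and promoters from RefSeq.

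RPM, shares above 10 RPM, pooled RPM and log2 folds with 1 RPM added to both sides were computed. A fold of 2 was a call, and the filter was above 10 RPM in over 5% of the cells. Intervals are exact, at 95%. The named genes are the 10 members, the genes of the lists that a result turns on, and the 2 genes most like each member. The members and lists were chosen with earlier results of these data known. Alternatives changed the threshold, depth (thinned to 3500000 mapped read pairs), library size, pseudocount, scale, cells and library label. No test was made, since each age was treated as 1 sample. The steps were tested on simulated Poisson counts with the same mean RPM in every cell of a side. That check does not cover genes whose read pairs lie in few cells. Calculations used pandas 2.3.3, numpy 2.4.6 and scipy 1.17.1 in Python 3.11.15, with matplotlib 3.10.9 for plots. Only library sizes came from R 4.3.3, by DESeq2 1.42.0 and edgeR 4.0.16. Histology and physiology were not analysed here.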

Additional observations from a re-analysis of the deposited data

How the results depend on the processing

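Of 48 folds past 2-fold, 48 kept their call with 0.1 RPM added, 47 with total counts as library size, 46 with TMM, 45 with DESeq2 size factors and 30 with 10 RPM added. The mean of log2 values over cells kept 15, and leaving out the highest cell of each side kept 37. Cells with MGE or Cajal-Retzius markers were left out as alternatives chosen after seeing the data. No paired analysis was possible because cells of different ages share no replicate number, so folds within each library label are given for P5 against E18 and the P5 types. Depth and single cells limit the rare genes, and the cause of a reversal was not tested.

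By the mean of log2 values the fold turned for Calb1 (-0.0088) and Reln (-1.03) for P2 against E18, for Vip (0.0019), Npy (0.18) and Reln (0.12) in P2 type 3, and for Calb2 in P5 type 2 (0.11). Without the highest cells it turned for Cxcl14 (-1.09) and Calb1 (-2.87) in P2 type 3 and Ndnf in P5 type 2 (-1.41). Without cells carrying markers of another cell type it turned for Reln for P2 against E18 (-0.053) and Ndnf in P5 type 2 (-2.77), and without MGE marker cells for Calb1 for P2 against E18 (-1.32), Npy in P2 types 2 (-0.42) and 3 (1.65) and Calb1 in P2 type 3 (-2.74). Within label 383 it turned for Reln for P5 against E18 (-0.33), for Ndnf in P5 types 1 (2.46) and 2 (-2.32), Id2 in type 2 (-4.07), and Vip (-1.27), Cxcl14 (-1.46) and Lamp5 (-1.66) in type 3. Within label 392 it turned for Cxcl14 for P5 against E18 (-0.20) and for Cck (-1.14) and Cxcl14 (-2.84) in P5 type 2, and within label 393 for Calb1 for P5 against E18 (1.06), Calb2 in P5 types 1 (-1.70) and 2 (3.14) and Ndnf in type 2 (-2.53).

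The number of the 10 genes past 2-fold by the mean of log2 values was 2 (of 4) for P5 against E18, 2 (of 5) for P2 against E18, 4 (of 7), 3 (of 5) and 0 (of 6) in P2 types 1 to 3, and 3 (of 6), 2 (of 6) and 2 (of 5) in P5 types 1 to 3. With 10 RPM added it was 3 for P2 against E18, 3 in P2 type 1, 1 in P5 type 2 and 3 in P5 type 3. For P2 against E18 it was 3 without the highest cells and 3 without cells with markers of another type, and in label 392 it was 8 for P5 type 3. Pairs sharing a cell numbered 24 at E18 with at least 1 read pair and 14 at P2 above 50 RPM. The share of cells with 3 or more genes was 43.9%, 62.1% and 82.7% at E18, P2 and P5 with at least 1 read pair, 26.8% at E18 and 61.3% at P5 above 1 RPM, and 2.44%, 7.58% and 16% above 50 RPM.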
